A study of Mus musculus with 16 samples.

Results

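The comparison of 6 h of auxin with 0 h was made on 4 RNA-Seq libraries of mouse embryonic stem cells (mESCs) in which the ATPase RUVBL2 can be degraded on demand, chosen by their labels out of 16 libraries in 8 conditions. The cells are V6.5 mESCs with a Tet-ON OsTIR1 transgene and a mini auxin-inducible degron with GFP (mAID-GFP) on both alleles of Ruvbl2, and every library of the series carries both. The 0 h group (labelled Dox) received 2 µg/ml doxycycline for 24 h, which induces the plant F-box protein OsTIR1. The 6 h group received the same doxycycline treatment and then 500 µM auxin (indole-3-acetic acid) for 6 h, which lets OsTIR1 mark the tagged protein for the proteasome. Each group holds 2 libraries, which the study's methods call technical duplicates, so the p-values below cover the variation among these libraries alone, and that variation may be technical. How many clones of the degron line gave these libraries is not stated in the methods. No cells without the degron were given auxin among these libraries, and time on doxycycline grows with time on auxin, so effects of RUVBL2 loss, of auxin itself and of longer doxycycline cannot be told apart.

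RUVBL2 and its partner RUVBL1 are AAA+ ATPases that assemble into hexameric rings. They are subunits of the INO80, SRCAP and TIP60 chromatin complexes, and in the R2TP cochaperone they help to assemble RNA polymerase II, the PIKK kinases and box C/D snoRNPs. mESCs keep their naive state under LIF while FGF signalling through ERK pushes them toward differentiation. When amino acid or protein folding stress triggers phosphorylation of eIF2α, the transcription factor ATF4 is translated and turns on the integrated stress response.

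The guide RNA that placed the tag shows where RUVBL2 was modified. Its 20 bases match the plus strand of chr7:45421965-45421984 (GRCm38), opposite the last exon of Ruvbl2, a gene on the minus strand. The guide is printed below 5′ to 3′, with the bases opposite the annotated stop codon of the longest transcript in capitals.
Ruvbl2 guide: gggtgtcaggtcagcTCAgg
The plus strand continues with AGG, the PAM, after the match. The tag lies at the C terminus. The tag acts on the protein, so the Ruvbl2 transcript is no check of the labels. Its level was 178 and 169 CPM (counts scaled to a common library total, after TMM scaling) at 0 h and 154 and 151 at 6 h, a log2 fold change of -0.19 (SE 0.045). That is under the 1.5-fold threshold.

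The 4 libraries were close in depth and quality. Totals were 13406832 to 13924958 counts, mitochondrial transcripts took 1.61 to 1.65% of them, and the log2 CPM of the 2 libraries of a group correlated across genes with r of 0.9908 at 0 h and 0.9905 at 6 h. The mESC markers Pou5f1 (907 and 911 CPM at 0 h, 920 and 903 at 6 h) and Nanog (1183 and 1162, then 1209 and 1164) were abundant in both groups. Other markers were lower at 6 h, among them Zfp42 (934 and 942, then 707 and 704) and Sox2 (273 and 270, then 214 and 219). Utf1 was at 102 and 96.3 and then at 35.8 and 35.9, while Sall4 was slightly higher (207 and 210, then 228 and 233). The study's methods say that cells were harvested after passages off fibroblast feeders. Of 30 feeder and fibroblast genes 15 passed the filter on low counts, their summed level was 2327 to 2342 CPM at 0 h and 2486 to 2581 at 6 h, and the defining collagen gene Col1a1 stood at 0.286 and 0.295 CPM at 0 h and 1.12 and 1.14 at 6 h. Of these 15 genes 4 were called higher at 6 h (26.7%) and 0 lower, against 10.1% and 5.7% of all genes tested. Their part in other results was not tested.

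Of 55335 genes in the table, 15155 passed the filter on low counts and were tested with edgeR's quasi-likelihood test. Calls required a Benjamini-Hochberg adjusted p under 0.05 over all genes tested, together with a change of more than 1.5-fold. At 6 h, 1524 genes were higher, 10.1% of those tested, and 864 were lower, 5.7%. Before the fold threshold 6487 genes were under an adjusted p of 0.05, and the median log2 fold change over all genes tested was -0.004. CPM sums to the same total in each library, so a change common to all transcripts would not appear in these values.

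**Figure D1:**
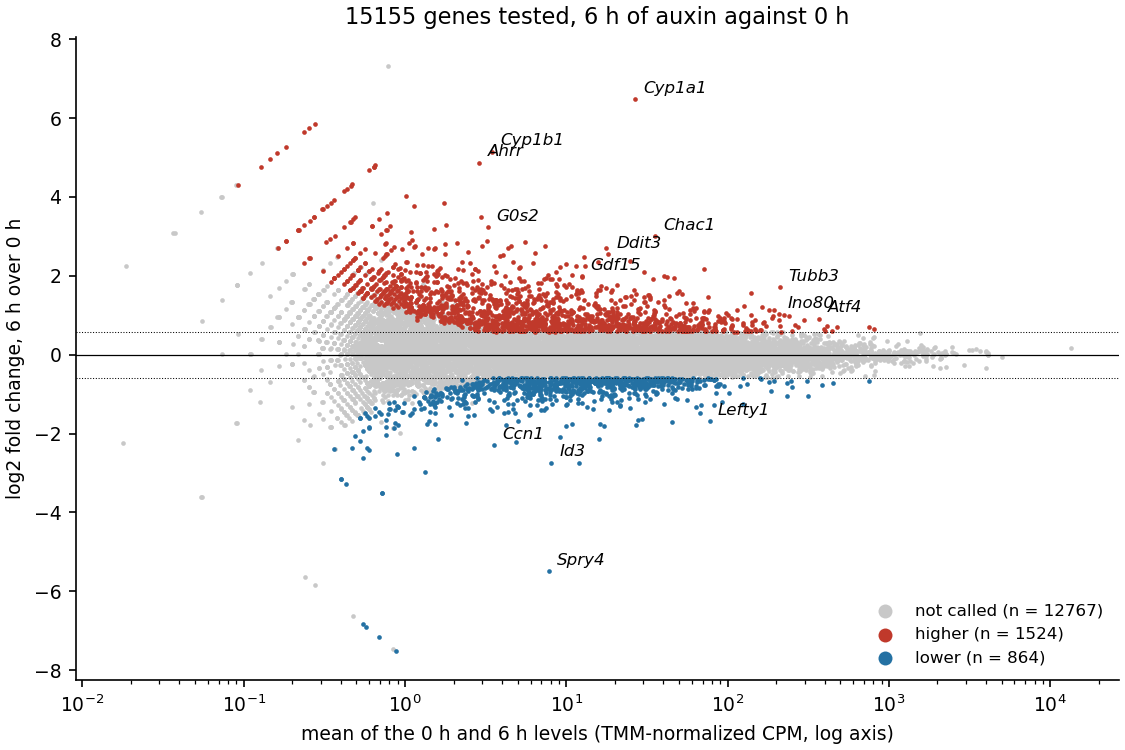
Each point is 1 of the 15155 genes tested. The horizontal axis is the mean of the 0 h and 6 h levels in TMM-normalized CPM on a log axis, the vertical axis the log2 fold change at 6 h over 0 h, and dotted lines mark 1.5-fold. The 1524 red genes were called higher and the 864 blue ones lower. Rows of points at the far left are genes with a few counts, some with none in one group, whose fitted fold changes are no estimate of size.

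Targets of the aryl hydrocarbon receptor (AHR) held the largest increase at 6 h among genes of at least 5 CPM. AHR is a transcription factor bound by many planar and indole-containing ligands, and indole-3-acetic acid is an indole. Whether auxin acted on AHR in these cells was not tested. Of 11 listed targets 10 were tested, with a median log2 fold change of 0.87 against -0.004 for all genes tested. Of these 10 targets 5 were called higher (50%) and 0 lower, against 10.1% and 5.7% of all genes tested. This count is only a description, since 1 of the called targets, Cyp1b1, passed the filter on low counts through the libraries at 6 h alone and so had to be high there. Cyp1a1 (ENSMUSG00000032315.6, chr9:57687928-57703824), which encodes a cytochrome P450 that oxidizes AHR ligands, was at 0.358 and 0.811 CPM at 0 h and at 53.3 and 52.3 CPM at 6 h. Both libraries at 6 h stood far above both at 0 h, which gave a log2 fold change of 6.48 at an adjusted p of 1.9e-16 (SE 0.22). Cyp1b1, a related cytochrome, had 0.143 and 0.221 CPM at 0 h and 6.28 and 7.29 CPM at 6 h. Ahrr, which encodes the repressor that limits AHR signalling, had 0.143 and 0.221 CPM at 0 h and 5.38 and 5.79 CPM at 6 h. The 0 h levels of Cyp1b1 and Ahrr rest on 5 counts each over both libraries, so the sizes of their increases are loosely known. Aldh3a1, an aldehyde dehydrogenase, rose by 1.70 (SE 0.18) on the log2 scale from 2.36 and 2.87 CPM, and Nqo1, a quinone reductase that is also a target of NRF2, rose by 1.19 (SE 0.071) from 38.9 and 35.2 CPM.

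Of the 8 conditions of the series, Cyp1a1 was highest at 6 h. It was 0.154 CPM in both Mock libraries. The levels of 0.156 and 0.228 CPM after 0.5 h, and of 1.60 and 0.683 CPM after 1 h, came before the peak. Afterwards it was 1.42 and 0.662 CPM (12 h), 0.255 and 0.314 CPM (24 h) and 3.49 and 3.54 CPM (48 h). All libraries outside 6 h stood far below both libraries at 6 h. For Cyp1b1 the levels outside 6 h were 0.679 CPM or less in every library. Other targets followed different courses. Ahrr was at 1.34 and 0.910 CPM after 12 h and again at 4.30 and 2.92 CPM after 48 h. Aldh3a1 was at 9.56 and 7.51 CPM at 6 h and higher later, with 26.0 and 24.7 CPM after 24 h and 19.4 and 19.2 CPM after 48 h.

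The integrated stress response was, of the 61 lists examined, the one with the largest share of called genes. Of 37 tested members 21 were higher and 0 were lower, or 56.8% against 10.1% of all genes tested, with a median log2 fold change of 0.816. Chac1 (ENSMUSG00000027313.3, chr2:119351229-119354381), which encodes an enzyme that degrades glutathione, rose from 7.66 and 8.11 CPM to 64.7 and 61.7 CPM, or 3.00 on the log2 scale (SE 0.10) at an adjusted p of 1.17e-16. Ddit3, which encodes the transcription factor CHOP, was at 4.94 and 5.60 CPM at 0 h and 30.3 and 31.5 CPM at 6 h, a log2 fold change of 2.55 (SE 0.13). Stc2, a secreted stanniocalcin, rose by 2.47 (SE 0.14), and Ddit4, an inhibitor of mTORC1 also known as REDD1, by 2.37 (SE 0.10) on the log2 scale. For each of these genes the libraries at 6 h did not overlap those at 0 h, which held for 1523 of the 1524 genes called higher.

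Atf4, Atf3 and Gdf15 rose as well, each by less than Ddit4. Atf4 went from 258 and 256 CPM to 485 and 483 CPM, a log2 fold change of 0.91 (SE 0.036). Atf3, a stress-induced factor of the ATF/CREB family, went from 2.79 and 3.24 CPM to 10.6 and 12.3 CPM. Gdf15, a secreted stress cytokine, rose by 1.99 (SE 0.17) on the log2 scale. The 23 tested aminoacyl-tRNA synthetase genes, many of which ATF4 also regulates, held no called gene, although Iars (527 and 537 CPM, then 756 and 742) had a log2 fold change of 0.49 (SE 0.036) at adjusted p = 1.12e-10, under the fold threshold. Among 26 tested ER chaperone and ERAD genes 0 were higher and 1 was lower (3.85%), against 10.1% and 5.7% of all genes tested. That list left out Herpud1, an ERAD gene held by the stress response list, which rose by 2.0 on the log2 scale. Among 22 tested cytosolic heat-shock genes 2 were higher (9.09%, near the 10.1% of all genes) and 0 lower. The larger of these changes was in the HSP40 gene Dnajb4 (3.65 and 3.76 CPM, then 9.64 and 11.7).

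ATF4 and its C/EBP partners bind the composite element TGATGNAA. RefSeq promoters (GRCm38.p6, 250 bases before to 50 after a gene's start) were searched for it on both strands. Of 20 called stress response genes with an entry, 9 held at least 1 match, or 45%, against 4.51% of all 27025 genes in the table and 2 of 11 members that were not called. The windows below show those 9 genes, 30 bases each, read in the direction of the gene, with the match in capitals. They are shown because the list was not made from promoter sequence, although many of its members are known as ATF4 targets. The other 11 called members with an entry, Ddit3 among them, held no match within the bases searched.
Atf3: ccttctcgcacTTGCATCAccaagtccgcg
Chac1: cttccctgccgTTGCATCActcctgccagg
Herpud1: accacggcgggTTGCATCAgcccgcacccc
Jdp2: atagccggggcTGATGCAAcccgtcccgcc
Nupr1: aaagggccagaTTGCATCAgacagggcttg
Pck2: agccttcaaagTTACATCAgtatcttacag
Slc1a4: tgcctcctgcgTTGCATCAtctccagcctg
Trib3: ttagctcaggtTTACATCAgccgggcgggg
Vldlr: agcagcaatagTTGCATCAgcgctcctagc
The match was TTGCATCA, the reverse complement of the element, or its TGATGCAA form in 7 genes, and TTACATCA in the other two. Positions of the first matched base ranged from 200 before the gene's start in Vldlr to 14 after it in Trib3. A match is a description of the sequence and not evidence of binding.

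The 300 promoter bases searched are printed for Chac1 and Ddit3, the list's most increased members, the first with a match and the second without. Sequence beyond these bases was not searched, so an element further away would be missed. Chac1 lies at chr2:119350992-119351291 on the plus strand and Ddit3 at chr10:127290543-127290842, also on the plus strand. Capitals mark the element.
Chac1: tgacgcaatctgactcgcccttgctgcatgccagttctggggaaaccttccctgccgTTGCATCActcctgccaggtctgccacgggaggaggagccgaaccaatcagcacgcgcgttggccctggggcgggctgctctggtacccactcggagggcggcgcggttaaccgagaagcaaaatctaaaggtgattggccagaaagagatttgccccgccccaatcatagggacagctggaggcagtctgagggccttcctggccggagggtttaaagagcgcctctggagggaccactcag
Ddit3: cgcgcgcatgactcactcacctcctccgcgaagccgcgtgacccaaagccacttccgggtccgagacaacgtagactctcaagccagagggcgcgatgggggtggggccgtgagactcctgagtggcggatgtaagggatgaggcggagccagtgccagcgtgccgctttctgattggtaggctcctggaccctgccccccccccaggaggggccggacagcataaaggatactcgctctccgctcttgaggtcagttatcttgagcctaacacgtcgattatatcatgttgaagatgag
Among all called genes with a promoter entry, TGATGNAA was found for 5.16% of the 1086 higher genes and 1.56% of the 643 lower genes, against 2.65% of the 10963 genes tested. The cyclic AMP element TGACGTCA was found for 1.75% of the higher genes and 4.35% of the lower ones, against 3.48% of those tested. The E-box CACGTG was found for 10.5% and 12% against 11.7%.

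**Figure D2:**
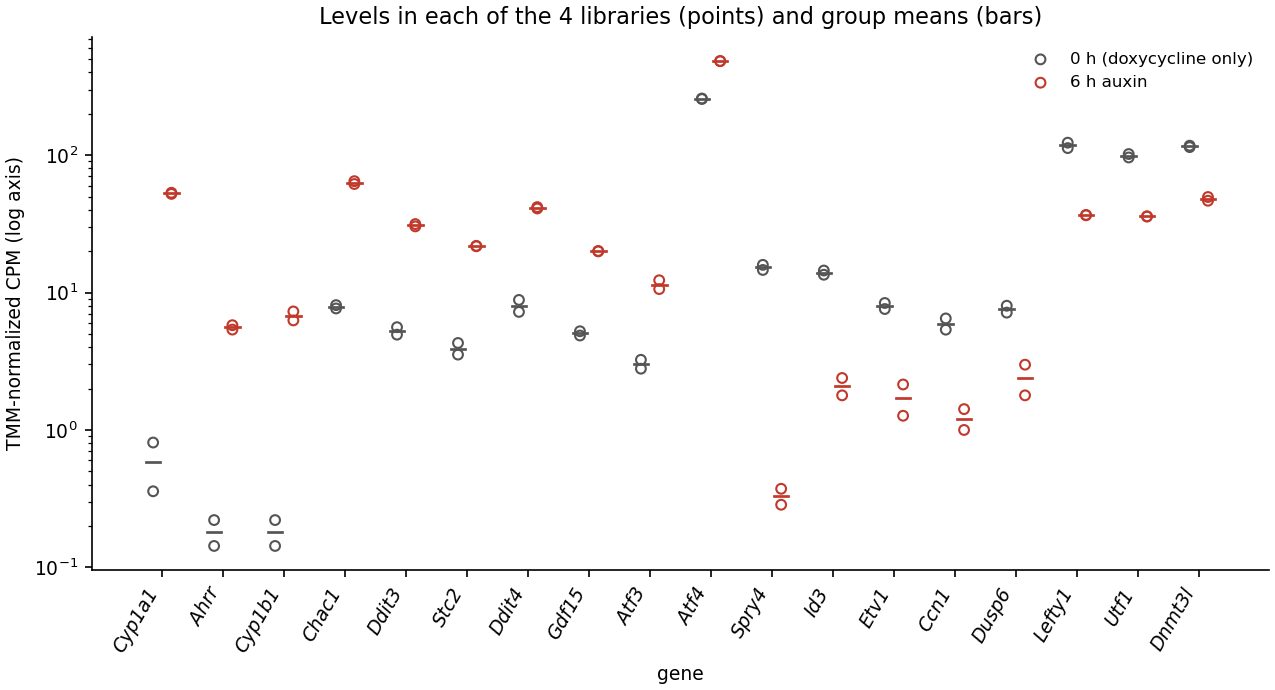
Levels of 18 named genes in TMM-normalized CPM on a log axis. Each circle is a library, grey for 0 h and red for 6 h, and each bar the mean of 2 libraries. The AHR and stress response genes at the left stand higher at 6 h and the signalling and pluripotency genes at the right stand lower.

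Feedback genes of the FGF-ERK pathway had the largest share of lower genes of the 61 lists. Of 24 tested members 12 were lower and 1 was higher, or 50% lower against 5.7% of all genes tested, with a median log2 fold change of -0.653. Spry4 (ENSMUSG00000024427.7), which encodes a Sprouty inhibitor of receptor tyrosine kinase signalling, fell from 14.6 and 15.9 CPM to 0.373 and 0.286 CPM. The log2 fold change of -5.50 (SE 0.30) had an adjusted p of 4.92e-13 and was the largest decrease among genes of at least 5 CPM, and its level at 6 h rests on 9 counts over both libraries against 420.0 at 0 h. The ETS factor genes Etv1 (7.59 and 8.40 CPM, then 1.27 and 2.14) and Etv4 (15.0 and 16.1, then 3.96 and 4.79) fell by 2.21 (SE 0.25) and 1.82 (SE 0.15) on the log2 scale. Dusp6, the phosphatase of ERK, fell from 8.02 and 7.15 CPM to 2.99 and 1.79.

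The promoter of Etv1, at chr12:38779832-38780131 on the plus strand, is shown as a member of the falling group. It held no match to the 3 motifs and so has no capitals.
Etv1: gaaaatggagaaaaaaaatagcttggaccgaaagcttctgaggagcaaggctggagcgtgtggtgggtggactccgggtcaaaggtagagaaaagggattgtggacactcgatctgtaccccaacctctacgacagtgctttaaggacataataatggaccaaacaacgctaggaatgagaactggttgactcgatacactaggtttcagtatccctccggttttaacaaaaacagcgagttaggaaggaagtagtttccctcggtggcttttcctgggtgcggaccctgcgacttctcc
Among 7 called genes of this list with an entry, 0 held TGATGNAA, 1 held TGACGTCA and 0 held CACGTG.

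Several of these genes had already been lower at 0 h than in untreated cells. Spry4 was at 28.3 and 26.7 CPM in Mock, and its log2 fold change from Mock to 0 h was -0.85. Etv1 changed by -1.22 and Dusp6 by -1.36 over the same step. These genes were lower still at 6 h, while Etv4 changed by 0.43 from Mock to 0 h.

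Some genes of the BMP and Nodal pathways were called in each direction. Of 23 tested BMP and ID genes 3 were higher and 3 lower (13% each), and of 27 tested Nodal, activin and TGF-beta genes 2 were higher and 2 lower (7.41% each). Over all genes tested these shares were 10.1% and 5.7%. Id3, an inhibitor of basic helix-loop-helix factors and a direct BMP target, fell from 14.5 and 13.5 CPM to 2.39 and 1.79, a log2 fold change of -2.74 (SE 0.19), and its relative Id1 fell from 14.3 and 13.9 CPM to 5.98 and 5.72. From Mock to 0 h Id3 changed by -1.60 and Id1 by 1.03. Lefty1, a secreted inhibitor and target of Nodal, fell from 113 and 123 CPM to 36.5 and 36.7, a log2 fold change of -1.69 (SE 0.062). The Notch and Hedgehog list held 7 higher (28%) and 4 lower (16%) genes of 25. Hhip, a Hedgehog-binding antagonist, went from 1.72 and 1.33 CPM to 6.65 and 8.94, and Hes6, a HES family factor, fell by 1.27 (SE 0.16) on the log2 scale.

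Of 24 tested targets of YAP and SRF 5 were lower, or 20.8% against 5.7% of all genes tested, and 1 was higher, or 4.17% against 10.1%, with a median log2 fold change of -0.255. Ccn1, a secreted matricellular protein, fell from 5.37 and 6.49 CPM to 1.42 and 1.00. Lats2, the Hippo kinase, fell by 1.78 (SE 0.21) and Ajuba, a LIM protein that binds it, by 1.25 (SE 0.048) on the log2 scale. Axl, a receptor tyrosine kinase, rose from 1.58 and 1.47 CPM to 4.41 and 3.93.

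Most pluripotency genes were not called, and a smaller group fell. Of 27 tested core and formative genes 7 were lower (25.9%) and 2 higher (7.41%), with a median log2 fold change of -0.327. Of 27 tested naive genes 3 were lower and 3 higher (11.1% each, median -0.013). Among all genes tested 5.7% were lower and 10.1% higher, so the naive share called higher was near that of all genes. Utf1, a chromatin factor of undifferentiated cells, fell from 102 and 96.3 CPM to 35.8 and 35.9 (log2 fold change -1.47, SE 0.075). Dnmt3l, the cofactor of de novo DNA methyltransferases, fell by 1.27 (SE 0.064) on the log2 scale. Prdm14, a repressor of FGF signalling and differentiation, rose from 43.3 and 47.5 CPM to 98.6 and 96.8. From Mock to 0 h Prdm14 had changed by -1.41, so that at 6 h it was still under the 120 CPM of both Mock libraries and the direction reverses when Mock is the baseline. Of 25 genes of DNA methylation and repression 4 were lower (16%), among them the imprint-protecting zinc finger gene Zfp57 (560 and 566 CPM, then 353 and 333) and the chromatin remodeler Atrx (484 and 483, then 283 and 286), and 0 were higher.

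Some genes of differentiated lineages rose, from levels that ranged widely. The mesoderm and primitive streak list held 5 higher genes of 10 tested (50%) and the neural list 5 of 14 (35.7%). The trophectoderm list held 2 of 15 (13.3%), near the 10.1% of all genes tested that were higher. Each list held 0 lower genes, against 5.7% of all genes tested. These counts are only a description, since 13 mesoderm and 11 neural members did not pass the filter and 1 called mesoderm gene, Wnt3, passed it through the libraries at 6 h alone. In bulk RNA a gene expressed in more cells cannot be told apart from one expressed more strongly per cell. Gsc, the homeobox gene of the gastrula organizer, rose by 2.85 (SE 0.28) on the log2 scale to 12.0 and 7.51 CPM. Tubb3 (ENSMUSG00000062380.4, chr8:123411424-123422015), the neuronal beta tubulin, rose from 94.3 and 104 CPM to 326 and 322, or 1.71 on the log2 scale (SE 0.052) at an adjusted p of 3.7e-17. It made up most of the rise in the summed neural list, from 398 and 399.9 CPM to 719 and 725. Elavl3, a neuronal RNA-binding protein, rose by 1.65 (SE 0.15). The primitive endoderm list held 4 higher (22.2%) and 0 lower genes of 18, led among well-measured members by Krt8 (log2 fold change 0.82, SE 0.081), and none of the 23 tested germline genes was called, with 7 at an unadjusted p under 0.05 in edgeR and 0 called by DESeq2.

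Few genes of the complexes that RUVBL2 belongs to were called. Of 30 tested subunit genes of INO80, SRCAP and TIP60, 2 were higher and 2 lower, or 6.67% each against 10.1% and 5.7%. Their median log2 fold change was -0.146 against -0.004 for all genes tested. At an unadjusted p under 0.05 in edgeR were 70% of them, against 49.7% of all genes tested. Ino80, the ATPase of the INO80 complex, rose from 135 and 138 CPM to 275 and 284 (log2 fold change 1.03, SE 0.041), and Epc1, a TIP60 subunit, from 67.6 and 64.2 to 120 and 117. Actr5, an actin-related subunit of INO80, fell from 15.3 and 13.9 CPM to 7.40 and 5.86. Against 5.7% lower and 10.1% higher over all genes tested, 0 of 20 tested RUVBL and R2TP genes were higher and 2 were lower (10%). These were Rpap3, the R2TP scaffold (27.1 and 26.7 CPM, then 15.5 and 16.5), and Tti1, which helps to stabilize PIKK kinases (70.1 and 73.8, then 41.8 and 42.8). Ruvbl1 had a log2 fold change of -0.38 (SE 0.054), under the fold threshold.

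In 12 lists no member was called in either direction. They hold PIKK kinases and NMD factors, aminoacyl-tRNA synthetases, germline genes, mitosis, ribosome assembly, cytosolic ribosomal proteins, Pol II and Pol III subunits, Mediator and general transcription factors, the proteasome, nuclear and mitochondrially encoded oxidative phosphorylation genes, and replication-dependent histones. Together they had 381 tested members. Of these 184 (48.3%) were at an unadjusted p under 0.05 in edgeR, against 49.7% of all genes tested, and DESeq2 called 0. By list this share ran from 7.14% (replication-dependent histones) to 66.7% (PIKK kinases and NMD factors). Among all genes tested, calls were least frequent in the bin of highest level, with 2.77% higher and 1.22% lower. The lists were not matched to other genes for level. Polr2a, the largest Pol II subunit, was at 669 and 679 CPM and then at 786 and 766 (log2 fold change 0.20, SE 0.036), and Rpl4, of the large ribosomal subunit, had a log2 fold change of 0.04 (SE 0.035).

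A few cell cycle genes were lower. Of 28 tested G1 cyclin and CDK regulator genes 3 were lower (10.7%) and 0 higher. Of 14 tested genes of the MYC network 2 were lower and 2 higher (14.3% each). Over all genes tested 5.7% were lower and 10.1% higher. Ccne2, the cyclin E2 gene, had a log2 fold change of -1.15 (SE 0.13), while Mycl, the L-MYC gene, rose by 0.96 (SE 0.11) and Mnt, a MAX partner that opposes MYC, fell by 0.79 (SE 0.063) on the log2 scale. Of 39 tested DNA repair genes 2 were higher (5.13%) and 1 lower (2.56%). Trp53bp1, which encodes the repair factor 53BP1, fell from 75.4 and 78.8 CPM to 32.3 and 37.5, and Brca2 rose by 0.71 (SE 0.055). Of 28 tested p53 targets 3 were higher and 3 lower (10.7% each, against 10.1% and 5.7% of all genes tested). Pmaip1, the BH3-only protein NOXA, fell by 0.87 (SE 0.086), and Hrk, another BH3-only protein, rose from 2.08 and 1.55 CPM to 8.74 and 8.15.

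Regulators of small GTPases held 18 higher (31%) and 4 lower (6.9%) genes of 58 tested, against 10.1% and 5.7% of all genes tested, with a median log2 fold change of 0.12. Rapgef4, the cAMP-activated exchange factor EPAC2, rose from 1.29 and 1.03 CPM to 7.55 and 7.65. Rab3a, a GTPase of synaptic vesicles, rose by 1.78 (SE 0.26). Of 20 tested clock genes 7 were higher (35%) and 1 lower (5%), with Ciart, a repressor of the clock, up by 1.19 (SE 0.13) on the log2 scale. Of 25 tested collagen, laminin and integrin genes 7 were higher (28%) and 0 lower, with the integrin subunit Itga3 at 35.7 and 30.6 CPM and then 71.8 and 62.8.

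Metabolic stress lists were mixed. Among 22 tested targets of the hypoxia-inducible factor 3 were higher and 4 lower, or 13.6% and 18.2% against 10.1% and 5.7% of all genes tested. Vegfa, the vascular growth factor, rose from 49.6 and 46.1 CPM to 108 and 103 and Ndrg1 by 1.58 (SE 0.11), while Pdk1, the kinase that inhibits pyruvate dehydrogenase, fell from 88.0 and 93.1 CPM to 38.8 and 33.5. Slc16a3, the lactate exporter MCT4, fell by 1.03 (SE 0.098). Vegfa is also a known target of ATF4, and Ddit4, named above, is the other member that rose.

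The remaining genes of largest change belong to no single pathway. Among those called higher, Osr2, a zinc finger factor of limb and craniofacial development, went from 0.286 and 0.663 CPM to 5.90 and 5.00, G0s2, an inhibitor of adipose triglyceride lipase, from 0.573 and 0.663 to 6.28 and 5.50, Cemip, a protein of hyaluronan turnover, from 5.37 and 3.98 to 32.8 and 28.7, and the long noncoding RNA Miat from 0.931 and 0.590 to 6.13 and 5.29. Among those called lower, Enox1 went from 19.9 and 22.1 CPM to 2.76 and 3.50, Aire, the autoimmune regulator, from 28.4 and 24.0 to 5.68 and 6.15, Slc39a14, a zinc and manganese importer, from 14.3 and 15.3 to 3.74 and 3.22, and Ddx58, the RNA sensor RIG-I, from 43.6 and 40.5 to 11.8 and 12.8. Of 34 tested Polycomb genes 3 were higher, or 8.82% against 10.1% of all genes tested, and 0 lower, among them the chromobox gene Cbx8 (0.788 and 1.11 CPM, then 3.44 and 3.22).

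**Figure D3:**
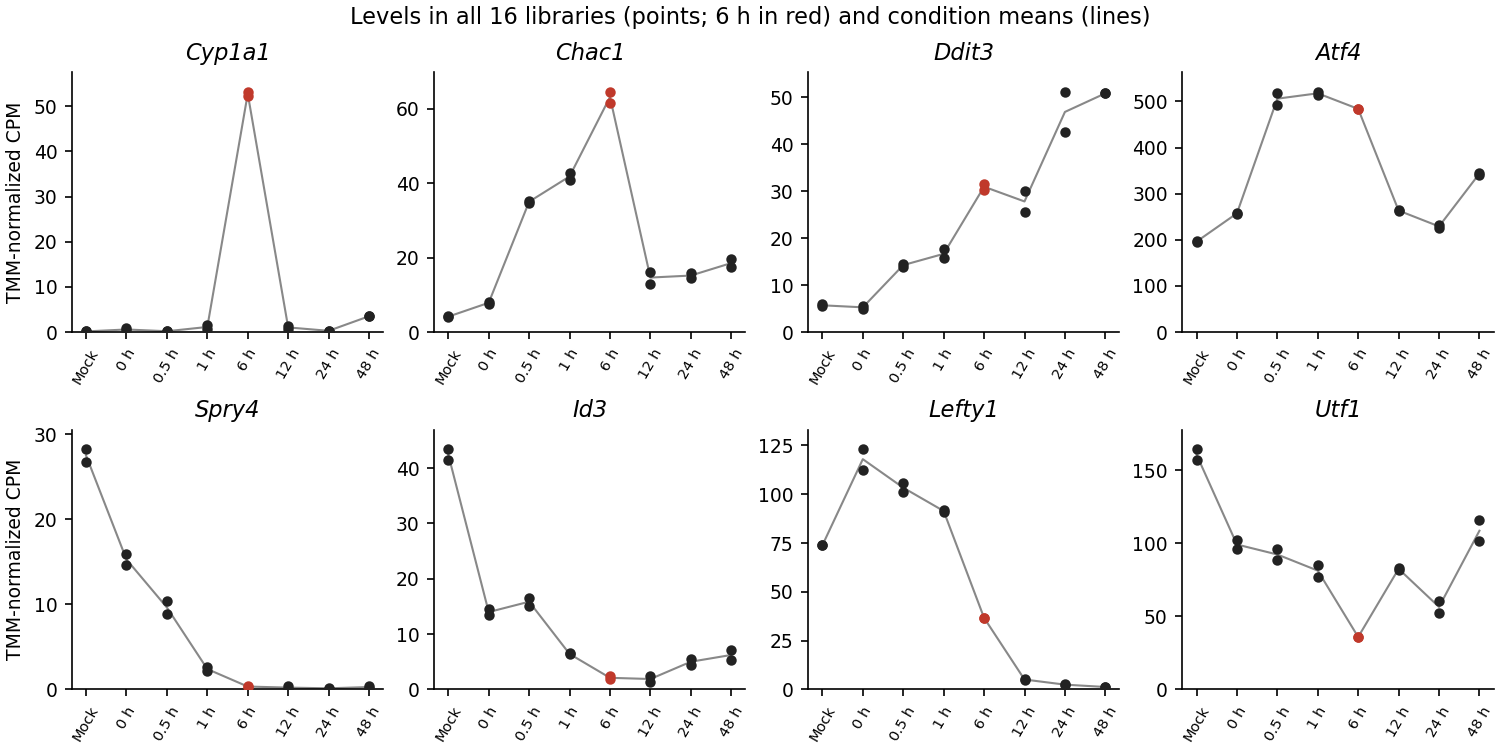
Levels in TMM-normalized CPM of 8 genes in all 16 libraries. Each panel is a gene, each point a library, red at 6 h, and the line joins the means of 2 libraries. Conditions are evenly spaced along the horizontal axis, which is not to scale in time. Cyp1a1 and Chac1 were highest at 6 h, and Spry4 and Id3 were lower at 1 h than at 0 h and lower again at 6 h.

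Set beside the other times, the genes named here followed different courses. Chac1 was already at 34.8 and 35.3 CPM at 0.5 h and fell back to 13.0 and 16.3 at 12 h. Atf4 was back at 263 and 264 CPM at 12 h, near its 0 h level, whereas Ddit3 was at 29.95 and 25.6 CPM after 12 h and at 50.8 CPM in both libraries after 48 h. Spry4 was at 2.64 and 2.13 CPM at 1 h and stayed at 0.414 CPM or less in every library from 12 h on. Id3 was at 6.32 and 6.49 CPM at 1 h and at 7.14 and 5.30 CPM at 48 h, above its level at 6 h. Lefty1 still had 92.0 and 90.8 CPM after 1 h, and only 5.06 and 5.05 CPM after 12 h. Utf1 was lowest at 6 h of all conditions and stood at 83.1 and 81.8 CPM at 12 h. All these times share the 0 h libraries.

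Called genes were unevenly spread over expression level and base composition. In 5 bins of equal gene number by the mean level over all 16 libraries, 18.7% of genes with 1.80 to 9.06 CPM were higher and 9.96% lower, and in the highest bin 2.77% and 1.22%. In the lowest bin 12.5% were higher and 3.07% lower, where genes can pass the filter through a condition in which they are high. By GC content of the longest transcript (GENCODE M21), the share called higher went from 4.13% in the lowest bin to 15.4% in the highest, and the share called lower from 9.08% to 3.76%. Gene length showed no such slope, with 9.71% higher in the shortest bin and 11.7% in the longest.

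The GC pattern was also seen as a shift of each library. The median log2 CPM of the highest GC bin minus that of the lowest, each relative to 0 h, was 0.222 and 0.179 in the libraries at 6 h, -0.209 and -0.221 in Mock, and highest after 24 h of auxin (0.481 and 0.415). Offsets that removed the trend left 1396 higher and 847 lower genes, and 151 of the 169 named genes that were called kept their call. With these offsets the stress response list held 20 higher genes in place of 21 and the FGF-ERK list the same count of 12 lower. Of 497 tested X-linked genes 29 were higher (5.84%) and 56 lower (11.3%), and with the offsets 27 and 45. Of 453 tested genes with Zfp, Zscan, Zkscan or Zbtb symbols 23 were higher (5.08%) and 66 lower (14.6%), and with the offsets 29 and 55. These are zinc finger genes, and their median GC content was 44.5%. Of 250 solute carrier (Slc) genes 45 were higher (18%) and 8 lower (3.2%), and of 80 mitochondrial ribosomal protein genes 0 and 7 (8.75%). The shares over all genes tested were 10.1% higher and 5.7% lower. These symbol families and the chromosome were chosen after their values were seen.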

How the data were processed

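Poly(A) RNA of 16 samples was sequenced as paired ends. According to the study's methods the authors trimmed reads (cutadapt 1.18), aligned them to mm10 (STAR 2.7.3a), removed duplicates and quantified genes with RSEM 1.3.1 on GENCODE annotation. They deposited RSEM expected counts (estimated, not always whole) and TPM per library, and a table of their own DESeq2 1.24.0 comparisons, which was not used here. Whether counting used strand was not given in the sources read here, so overlapping and antisense genes may share reads.

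Expected counts were rounded. Genes were kept with filterByExpr over the 8 conditions (minimum count 10), scaled by TMM and fitted over all 16 libraries in edgeR 4.0.16 (R 4.3.3) with condition as the only term, without a replicate block, on 8 residual degrees of freedom (biological coefficient of variation 3.43%). Standard errors are the log2 fold change over the square root of its F statistic. Levels are TMM-normalized CPM. The members and gene lists were chosen with earlier results of these data known. Genes were named when the paper names them, when they were among the 15 largest increases or decreases of at least 5 CPM with non-overlapping libraries, or as up to 4 called (or else most abundant) members of a list. The markers of cell types were also fixed. Some genes that this rule names are not reported here. Of the 15155 genes tested, 15143 matched GENCODE M21. In simulated 6 h and 0 h libraries of 15155 genes, edgeR recovered 85 of 100 genes changed by 2-fold and 97 of 100 changed by 4-fold with 4 false calls. DESeq2 1.42.0 recovered 79 and 95 with 0. The changed genes were drawn from those above about 1 CPM at 0 h, so recovery of lower genes such as Cyp1a1 was not simulated. The simulated spread was the one fitted to these libraries. Alternatives changed scaling, filter, tool (DESeq2, and limma 3.58.1 on log2(TPM + 1) or log2(TPM + 0.1)), threshold, baseline and samples.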

Additional observations from a re-analysis of the deposited data

How the results depend on the processing

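Of the alternatives run, changes of the fold threshold moved the counts of called genes most. Without the fold threshold 3070 genes were higher and 3417 lower, and with a change of over 2-fold 844 and 223. DESeq2 on the 4 libraries alone called 867 higher and 571 lower, and with Mock as the baseline 2224 genes were higher and 1693 lower. Every other alternative stayed within 1.5 times of 1524 and 864. Among these were DESeq2 on 16 libraries (1042 and 660) and limma. Scaling to reads assigned to the dm6 (Drosophila) genome, another of them, gave 1447 and 934 at a median log2 fold change of -0.024. The study's methods describe added Drosophila cells for a nascent RNA assay and not for these libraries. The source of the dm6 reads is therefore not known here. Leaving out each of the 4 libraries in turn gave 1253 to 1317 higher and 800 to 859 lower genes. Offsets for GC content, an alternative chosen after seeing the data, gave 1396 and 847.

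The replicate block changed the counts to 1509 higher and 850 lower. The replicate numbers are only names, since deviations of libraries with the same number correlated at 0.00898, so no pairing was assumed.

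Of 169 named genes that were called, 6 changed sign with Mock as the baseline, at log2 fold changes of -0.065 for Clk1, -0.63 for Dppa3, -0.61 for Meis2, -0.16 for Notum, -0.30 for Prdm14 and 0.091 for Sdf2l1, since their levels had moved the opposite way from Mock to 0 h. No other alternative reversed a called named gene. DESeq2 on 16 libraries left 20 of the 169 uncalled and the GC offsets 18. In the integrated stress response list 21 members were higher with each library left out and in DESeq2 on 16 libraries, and 28 with Mock as the baseline. In the FGF-ERK list DESeq2 called 11 lower. Low genes limit the precision, since Cyp1b1 and Ahrr rest on 5 counts each at 0 h.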
